A study of Mus musculus with 12 samples.

Results

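A set of 9 genes tied to the naive and quiescent state of T cells were followed across regulatory and conventional T cells: Tcf7, Lef1, Satb1, S1pr1, Btg1, Btg2, Tob1, Dapl1 and Igfbp4. The members were all probe sets that the annotation of the array assigns to exactly 1 gene, where that gene is 1 of these 9. The rule found 22 probe sets for 8 of the 9 genes, out of 45037 probe sets tested, and the level of Tcf7 was not analysed here. Igfbp4 had 6 probe sets, Satb1 5, Btg1 3, Lef1, Btg2 and Tob1 2 each, and S1pr1 and Dapl1 1 each. Probe sets of the same gene read the same RNA and are not independent of each other.

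The arrays measured RNA of spleen T cells from mice aged 6 weeks. Regulatory T cells (Treg) were CD4+CD25+ and conventional T cells (Tconv) were CD4+CD25-, and per the labels all were sorted free of cells with CD8a, CD11b, CD69 or B220 after magnetic enrichment on CD25. NOD mice, which develop autoimmune diabetes, were compared with B6.H2g7 mice, a B6 strain congenic for the MHC haplotype H2g7 that NOD mice carry, so that the MHC class II molecule Ag7 was shared by all groups. The 4 groups were B6.H2g7 Tconv, B6.H2g7 Treg, NOD Tconv and NOD Treg, with 3 arrays each and RNA of 3 mice pooled on each array, and the series text calls the pools independent. Per the labels, 94%, 96% and 96% of the sorted B6.H2g7 Treg cells were Foxp3+, against 89%, 95% and 95% of the NOD Treg cells. The study set the ratio of Treg to Tconv expression in NOD against that in B6.H2g7.

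T cells that have not met antigen are small, do not divide and circulate between blood and lymphoid organs, and this resting state is kept up by dedicated genes. Lef1 and its relative Tcf7 are HMG box transcription factors that bind beta-catenin and are high in naive T cells, and Satb1 organises chromatin in thymocytes and T cells. S1pr1 is the receptor that lets T cells leave lymphoid organs along a gradient of sphingosine 1-phosphate, Btg1, Btg2 and Tob1 belong to a family of antiproliferative proteins that bind the CCR4-NOT deadenylase, Dapl1 is a small protein related to the death-associated protein Dap, and Igfbp4 is a secreted protein that binds insulin-like growth factors.

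The sequence just before the start site was taken from RefSeq for GRCm38.p6 for the members that had an entry (8 of 9, all but S1pr1 and with Tcf7 included). Dapl1 and Igfbp4 are shown because they had the largest differences between Treg and Tconv. Btg1 is shown because it carries the same motif letters while its level differed little between Treg and Tconv. Each run holds the 250 bases before the start site, all on the plus strand, at chr2:59484403-59484652 for Dapl1, chr11:99040994-99041243 for Igfbp4 and chr10:96616751-96617000 for Btg1. Capitals mark TATAAA and the forkhead motif TGTTTAC, searched on both strands.
Dapl1: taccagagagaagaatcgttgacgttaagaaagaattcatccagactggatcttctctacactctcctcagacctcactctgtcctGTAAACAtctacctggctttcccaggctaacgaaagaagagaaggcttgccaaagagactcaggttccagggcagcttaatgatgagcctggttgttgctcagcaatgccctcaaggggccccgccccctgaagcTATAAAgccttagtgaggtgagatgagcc
Igfbp4: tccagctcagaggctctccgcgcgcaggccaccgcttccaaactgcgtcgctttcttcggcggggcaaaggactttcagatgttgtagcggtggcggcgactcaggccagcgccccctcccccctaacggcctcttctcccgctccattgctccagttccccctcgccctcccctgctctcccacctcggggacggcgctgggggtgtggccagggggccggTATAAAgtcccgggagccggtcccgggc
Btg1: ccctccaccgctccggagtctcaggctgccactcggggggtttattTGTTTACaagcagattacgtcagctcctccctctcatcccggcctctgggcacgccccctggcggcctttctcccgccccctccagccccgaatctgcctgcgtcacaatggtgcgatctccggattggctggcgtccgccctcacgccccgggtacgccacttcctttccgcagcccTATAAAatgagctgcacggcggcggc
In all 3 windows TATAAA lay close to the start, its first base 29 bases before it in Dapl1, 28 in Igfbp4 and 26 in Btg1. TATAAA was present in at least 1 window of 6 of the 8 genes with an entry, against 14.3% of all 27025 genes in the RefSeq table. The others were Tob1, 47 bases before the start, and Tcf7 and Lef1, both as the reverse complement. In these it began 8 and 231 bases before the start. TGTTTAC or its reverse complement was found in Dapl1 and Btg1 of these 8, against 3.54% of all genes. The TCF and LEF motif CTTTGA was found only in 1 of the 4 windows of Lef1, against 15.8% of all genes, and the KLF and SP motif CCNCNCCC in all 8 genes, against 48.5%. The windows of Igfbp4 (69.2% GC) and Btg1 (65.2%) were GC-rich, and that of Dapl1 had 50% GC. Btg1 was printed because it carries the letters, so its sharing of TATAAA follows from that choice. These matches describe letters in a window, Lef1 and Satb1 with 4 and 5 windows had more chances of a match than genes with 1, and no factor's binding was measured.

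The values below are log2 of the authors' intensities, with the mean ± SD of 3 arrays, and differences are log2 differences of group means ± the standard error of the limma fit. A probe set was called where the p-value, adjusted by Benjamini-Hochberg over all 45037 probe sets, was under 0.05. The level of 1 probe set was not set against that of another. With 3 arrays on each side the smallest exact permutation p is 0.1, so single genes were tested by limma alone. In bulk RNA, fewer cells that carry a transcript and less of it per cell cannot be told apart.

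The 12 arrays had medians between 83.9 and 88.6 on the linear scale. All 8 Treg genes looked at were called higher in Treg in each strain, beside 2.04% and 2.09% of all probe sets in B6.H2g7 and NOD. Foxp3 stood at 5.68 ± 0.137 and 5.91 ± 0.335 in B6.H2g7 and NOD Tconv and 11.00 ± 0.274 and 11.05 ± 0.332 in Treg (SD, n = 3). In Tconv, 3 of the 8 were called higher in NOD than in B6.H2g7 and 0 lower, beside 1.31% and 1.65% of all probe sets. They were Ikzf2 (0.76, adjusted p = 0.0492, limma), Nrp1 (0.75, 0.00101) and Tnfrsf18 (0.62, 0.00868). Their part in strain differences of the members was not tested. Within groups, the arrays that share a number deviated together in several groups, which matters below for S1pr1. The difference between the 3′ and 5′ actin control probe sets, a measure of how much the RNA is read from its 3′ end, ran from 2.66 to 4.70 on the log2 scale, and its lowest value in B6.H2g7 Treg, NOD Tconv and NOD Treg was on array 1.

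Of the 8 measured genes, 4 fell in Treg in both strains and the other 4 were not called in either. By brightest probe sets, 1.7% of all 18193 genes were called lower in B6.H2g7, 1.52% in NOD and 3.03% averaged over strains. On the log2 scale averaged over strains, Dapl1 fell by 2.72, Igfbp4 fell by 1.57, Lef1 fell by 0.76 and Satb1 fell by 0.57. S1pr1, Btg1, Btg2 and Tob1 had differences of -0.25, 0.01, -0.04 and -0.01. Over all probe sets, 10 of 22 were called lower and 0 higher in B6.H2g7, where 1.34% of all probe sets were called lower and 2.04% higher (3.37% in all). In NOD 11 were called lower and 0 higher, where 1.11% were called lower and 2.09% higher (3.2% in all). Averaged over strains 12 were called lower and 0 higher, with 2.4% of all probe sets called lower and 3.45% higher (5.84% in all). The members and the gene lists below were chosen with earlier results of these data known. Several of the called probe sets also read the same RNA, that of Igfbp4 or Satb1. The counts therefore describe these genes and are no independent test of the set.

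The median difference of the 22 probe sets was -0.52 in B6.H2g7, -0.66 in NOD and -0.58 averaged, while the median over all probe sets was -0.00056, -0.017 and -0.011. The arrays of Treg and Tconv did not overlap for 14 of 22 probe sets in B6.H2g7 (15.1% of all probe sets), 15 in NOD (17%) and 11 over both strains at once (3.65%). In B6.H2g7, 12 of the 14 had the lower arrays in Treg, and all 15 and 11 did in the other comparisons.

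**Figure D1:**
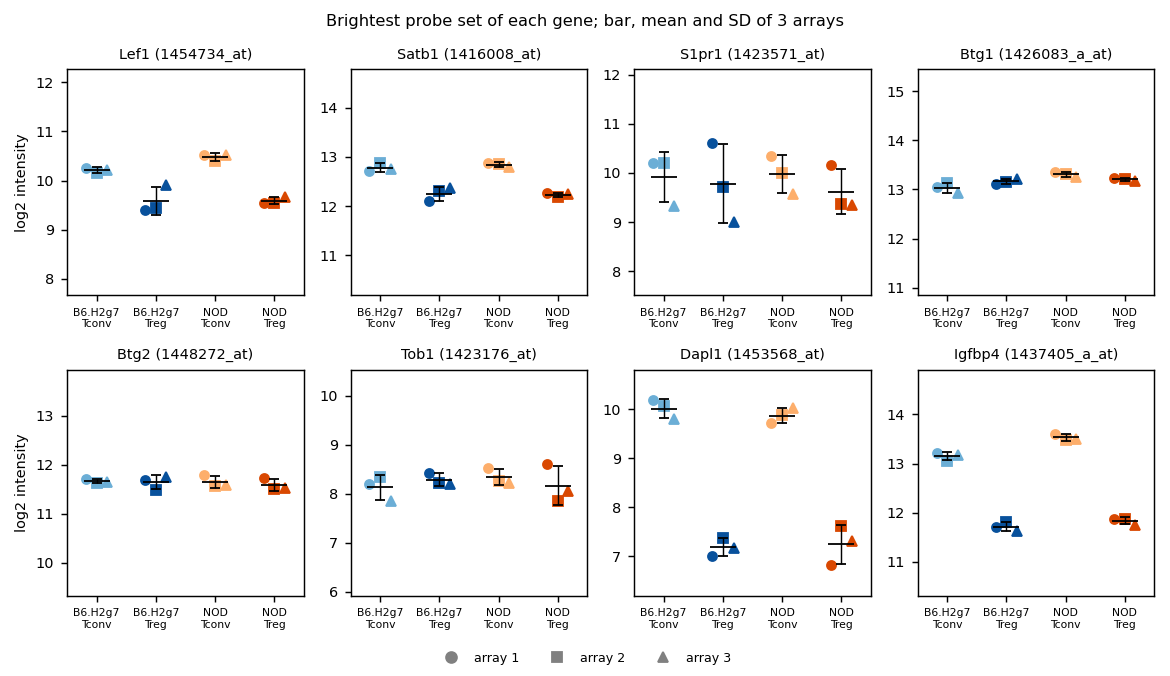
Log2 intensity of the brightest probe set of the 8 measured genes in each of the 12 arrays, by group, with marker shape for the array number and bars for the mean and SD of 3 arrays; every panel spans the same range. Dapl1 and Igfbp4 lay lower in all 6 Treg arrays than in all 6 Tconv arrays, as did Lef1 and Satb1 by less, and S1pr1 spread widely within each group.

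Lef1 stood at 10.26, 10.16 and 10.22 in the B6.H2g7 Tconv arrays and at 9.41, 9.43 and 9.91 in the B6.H2g7 Treg arrays (probe set 1454734_at). In NOD it stood at 10.53, 10.39 and 10.52 in Tconv and at 9.55, 9.54 and 9.67 in Treg. All Treg arrays were lower than all Tconv arrays, and array 3 of B6.H2g7 Treg lay nearest to Tconv. Lef1 fell by 0.63 ± 0.123 in B6.H2g7 (adjusted p = 0.0113, limma) and by 0.89 ± 0.123 in NOD (adjusted p = 0.000921), which are 1.55-fold and 1.86-fold lower. The call in B6.H2g7 was lost without array 1 of Tconv (adjusted p = 0.0517) or array 2 of Treg (0.0578), with only the arrays compared in the fit (0.0935) and with all arrays numbered 1 left out (0.167), at differences between -0.63 and -0.52. Its other probe set, 1421299_a_at, was dim in Treg, meaning a group mean under 5.28, the 25th percentile of probe set means. That probe set was called averaged over strains (-0.55 ± 0.129, adjusted p = 0.0228), a call lost when any 1 of 6 arrays was left out (adjusted p between 0.0505 and 0.0674: arrays 1 of either Tconv group, arrays 2 and 3 of either Treg group).

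Of 23 genes that work with Lef1 or mark its pathway (beta-catenin, corepressors, the destruction complex and targets), 4 fell and 1 rose averaged over strains, beside 3.03% and 4.46% of all 18193 genes by their brightest probe sets. Those that fell were the Groucho corepressor Tle4 (-0.91, adjusted p = 0.000349), the beta-catenin cofactor Bcl9 (-0.70, adjusted p = 0.00369), the Wnt target and feedback inhibitor Axin2 (-0.47, adjusted p = 0.0101) and Pygo2, which binds Bcl9 (-0.27, adjusted p = 0.036). Tcf7l1, another member of the TCF family, rose by 0.45 (adjusted p = 0.00106). The median of the 23 was -0.020, against -0.011 for all genes. Beta-catenin itself (Ctnnb1) had a difference of -0.16 (adjusted p = 0.692). Within strains, 2 of the 23 fell and 1 rose in B6.H2g7, while 1 fell and 2 rose in NOD. Of all genes, 1.7% and 1.52% were called lower in B6.H2g7 and NOD. Tle4 stood at 10.51, 10.67 and 10.11 in B6.H2g7 Tconv, 9.76, 9.55 and 9.16 in B6.H2g7 Treg, 10.54, 10.49 and 10.51 in NOD Tconv and 9.86, 9.43 and 9.62 in NOD Treg, with no overlap between Treg and Tconv. The other 2 probe sets of Tle4 were not called (-0.25 and -0.18), and 1 of them was dim.

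Satb1 stood at 12.72, 12.88 and 12.76 in B6.H2g7 Tconv against 12.09, 12.30 and 12.36 in B6.H2g7 Treg (probe set 1416008_at). In NOD the arrays read 12.88, 12.87 and 12.79 in Tconv against 12.26, 12.19 and 12.25 in Treg. The 2 cell types did not overlap in either strain, and the SD within groups was between 0.0399 and 0.141. Satb1 fell by 0.53 ± 0.0902 in B6.H2g7 (adjusted p = 0.00416) and by 0.61 ± 0.0902 in NOD (adjusted p = 0.00154). In B6.H2g7 this call was lost with only the arrays compared in the fit (adjusted p = 0.0584) and with the arrays numbered 1 left out together (0.0612).

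The 5 probe sets of Satb1 pointed the same way. Averaged over strains, 1439449_at fell by 0.86, 1416007_at by 0.70 and 1436182_at by 0.66, and 4 of the 5 were called. The remaining one, 1439315_at, had a difference of -0.60 ± 0.187 (adjusted p = 0.101) and the largest spread within groups of the 5 (SD 0.387), being high on array 1 of NOD Tconv at 7.77. In NOD, 1416007_at was called (-0.79, adjusted p = 0.0158), a call lost when any 1 of the 3 NOD Tconv arrays or array 1 of NOD Treg was left out (adjusted p between 0.058 and 0.0663) and with quantile normalization (0.0597). In B6.H2g7 the same probe set had -0.61 (adjusted p = 0.0715), with array 3 of Treg, at 12.21, close to the 3 Tconv arrays, and without that array it was -0.81 (adjusted p = 0.0043). In NOD, where arrays with 1 number deviated together, the number as a block also brought 1439315_at (adjusted p = 0.0109) and Lef1 1421299_a_at (0.00443) under the threshold.

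S1pr1 was the most variable member. It read 10.21, 10.21 and 9.33 in B6.H2g7 Tconv, 10.61, 9.71 and 9.01 in B6.H2g7 Treg, 10.34, 10.01 and 9.58 in NOD Tconv and 10.16, 9.37 and 9.34 in NOD Treg (probe set 1423571_at). Array 1 was the highest or level with the highest and array 3 the lowest in every group, so Treg and Tconv overlapped in both strains. The SD within groups was 0.563, larger than for 99.2% of all probe sets, against a median of 0.148. The difference was -0.14 ± 0.377 in B6.H2g7 and -0.36 ± 0.377 in NOD, and -0.25 averaged over strains, with a 95% interval from -0.83 to 0.33 (adjusted p = 0.82). The interval leaves room for a decrease as large as that of Lef1, so the level of S1pr1 was not shown to be alike in the 2 cell types.

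The actin 3′ minus 5′ difference moved with these levels: in B6.H2g7 Treg it was 2.66, 4.26 and 4.58 on arrays 1 to 3, where S1pr1 read 10.61, 9.71 and 9.01. With that difference as a covariate the averaged change of S1pr1 was -0.13 (adjusted p = 0.573), and with the arrays numbered 1 left out together it was -0.43 (adjusted p = 0.355). For 5 other member probe sets of the 22, array 1 was the highest in all 4 groups, which held for 7.08% of all probe sets: 1 each of Lef1, Satb1 and Btg1 and 2 of Igfbp4. Whether RNA quality has a part in the level of S1pr1 was not tested beyond this covariate.

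**Figure D2:**
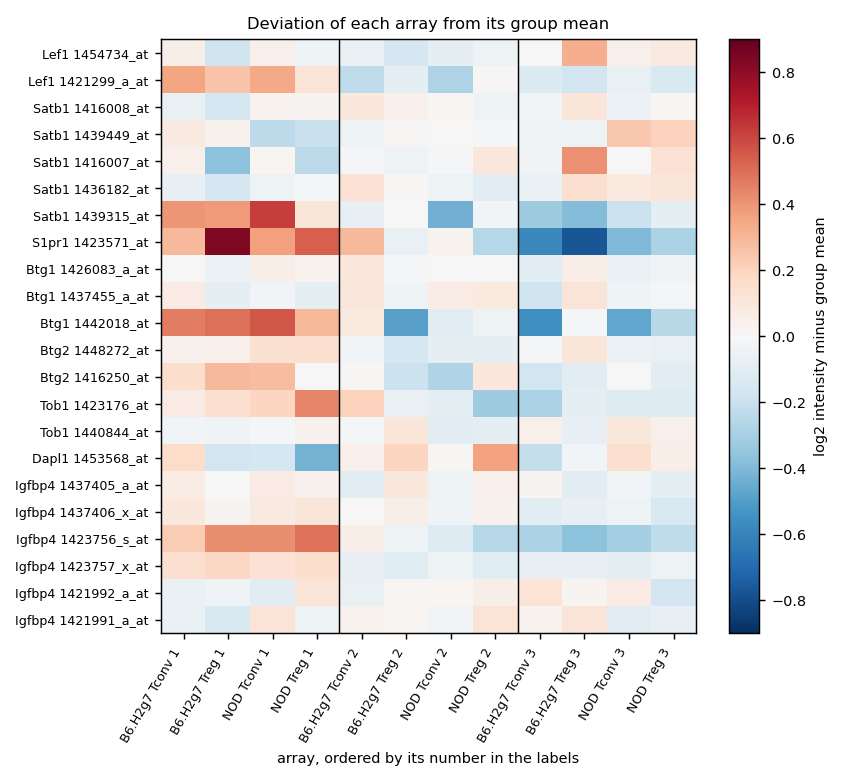
Log2 intensity of each array minus the mean of its group, for the 22 probe sets (rows) and 12 arrays (columns, ordered by array number), with red above and blue below the group mean. S1pr1, Btg1 1442018_at, Satb1 1439315_at and Igfbp4 1423756_s_at were above the group mean on all 4 arrays numbered 1.

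Of 15 other genes of sphingosine 1-phosphate signalling (receptors, kinases, lyase, phosphatase, transporter, G proteins and regulators), 0 were called between Treg and Tconv averaged over strains (limma). At an unadjusted p under 0.05, 1 of the 15 passed. Among all genes 7.5% were called, so 0 of 15 says little about this list. S1pr4, another receptor of lymphocytes, had a difference of -0.12 (adjusted p = 0.636) and Klf2, a transcription factor known to drive S1pr1, one of -0.11 (adjusted p = 0.826). Between strains, 2.96% of all probe sets were called in Tconv and 3.26% in Treg. Cd69, whose protein binds S1pr1 and takes it from the cell surface, was the single gene of this list called between strains. It stood at 10.65 ± 0.148 in B6.H2g7 Tconv and 11.93 ± 0.291 in NOD Tconv (SD, n = 3), a difference of 1.28 (adjusted p = 0.000289), and was 0.75 higher in NOD than in B6.H2g7 Treg (adjusted p = 0.0153). Cells with surface CD69 had been sorted out of all groups. The level of S1pr1 differed between strains by 0.06 in Tconv, with a 95% interval from -0.76 to 0.88, and by -0.15 in Treg, from -0.97 to 0.67.

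The antiproliferative genes Btg1, Btg2 and Tob1 were not called between Treg and Tconv by their brightest probe sets. Between strains, Btg1 stood higher in NOD than in B6.H2g7 Tconv without overlap of the arrays, and was not called in the main fit. Btg1 read 13.04, 13.13 and 12.93 in B6.H2g7 Tconv, 13.11, 13.15 and 13.22 in B6.H2g7 Treg, 13.36, 13.31 and 13.25 in NOD Tconv and 13.24, 13.21 and 13.18 in NOD Treg (1426083_a_at). Its SD within groups was 0.0653, smaller than for all but 2.54% of probe sets, and its averaged difference of 0.01 had a 95% interval from -0.11 to 0.14. That average joins opposite signs. The mean was 13.16 in Treg against 13.04 in Tconv of B6.H2g7, and 13.21 against 13.31 in NOD. Btg1 was measured tightly enough that an averaged change as large as that of Satb1 lies outside its interval. A second probe set, 1437455_a_at, gave 0.07 (from -0.08 to 0.22), and the third, 1442018_at, which varied far more within groups (SD 0.461), gave -0.28 (from -0.76 to 0.20).

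Btg2 stood at 11.66 ± 0.0366, 11.64 ± 0.14, 11.64 ± 0.119 and 11.59 ± 0.129 in B6.H2g7 Tconv, B6.H2g7 Treg, NOD Tconv and NOD Treg (1448272_at; SD, n = 3). Its averaged difference was -0.04, with a 95% interval from -0.19 to 0.12, and that of 1416250_at was 0.16, from -0.08 to 0.40. Tob1 stood at 8.13 ± 0.252, 8.29 ± 0.127, 8.34 ± 0.169 and 8.17 ± 0.394 in the same order (1423176_at), with a difference of -0.01 and an interval from -0.29 to 0.27. The other probe set of Tob1, 1440844_at, was dim in all 4 groups. None of the 7 probe sets of these 3 genes was called in any of the 6 comparisons, and their values were spread over both signs. Of all probe sets, between 0.0933% and 5.84% were called in each comparison, so 0 of 7 says little by itself. Among 13 other genes of this family and of the CCR4-NOT and PAN deadenylases, which shorten mRNA tails, 0 were called in any of the 6 comparisons (limma). Averaged over strains 7.5% of all genes were called, so 0 of 13 says little about this list. At most 2 passed an unadjusted p under 0.05 in any comparison, and the median averaged difference was -0.07. Tob2, the closest relative of Tob1, had 0.05 (adjusted p = 0.875).

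Dapl1 had the largest difference of the 8 genes by their brightest probe sets. It read 10.18, 10.06 and 9.80 in B6.H2g7 Tconv and 7.01, 7.38 and 7.16 in B6.H2g7 Treg (1453568_at). In NOD it read 9.71, 9.88 and 10.02 in Tconv and 6.83, 7.61 and 7.31 in Treg. The highest Treg array lay more than 2 log2 units under the lowest Tconv array in both strains, and array 1 of NOD Treg was the lowest of all. Dapl1 fell by 2.83 ± 0.179 in B6.H2g7 (7.1-fold, adjusted p = 9.38e-07) and by 2.62 ± 0.179 in NOD (6.15-fold, adjusted p = 2.05e-06). Among 18193 genes ordered from the lowest difference, Dapl1 held place 11 in B6.H2g7, 10 in NOD and 10 averaged over strains. The strains did not show different levels: NOD minus B6.H2g7 was -0.14 in Tconv, with a 95% interval from -0.53 to 0.25, and 0.06 in Treg, from -0.32 to 0.45.

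Igfbp4 fell in Treg by 5 of its 6 probe sets in both strains. The brightest, 1437405_a_at, read 13.22, 13.06 and 13.18 in B6.H2g7 Tconv, 11.71, 11.81 and 11.62 in B6.H2g7 Treg, 13.60, 13.49 and 13.51 in NOD Tconv and 11.87, 11.88 and 11.76 in NOD Treg. The arrays of each group lay within a narrow band, and the bands of Treg and Tconv were far apart. It fell by 1.44 ± 0.0867 in B6.H2g7 (2.71-fold, adjusted p = 5.78e-07) and by 1.70 ± 0.0867 in NOD (3.24-fold, adjusted p = 1.76e-07). The size differed between probe sets of the gene: the averaged differences were -2.49 (1423756_s_at), -1.68 (1437406_x_at), -1.57 (1437405_a_at), -1.55 (1423757_x_at) and -0.92 (1421992_a_at). The sixth, 1421991_a_at, did not follow, with differences of 0.18 ± 0.0971 in B6.H2g7 and -0.20 ± 0.0971 in NOD (adjusted p = 0.546 and 0.503), and its levels over the 12 arrays correlated with those of the brightest at r = 0.094, against 0.959 to 0.997 for the other 4. By array naming, the endings _s_at and _x_at mark probe sets with probes that can also match other transcripts.

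**Figure D3:**
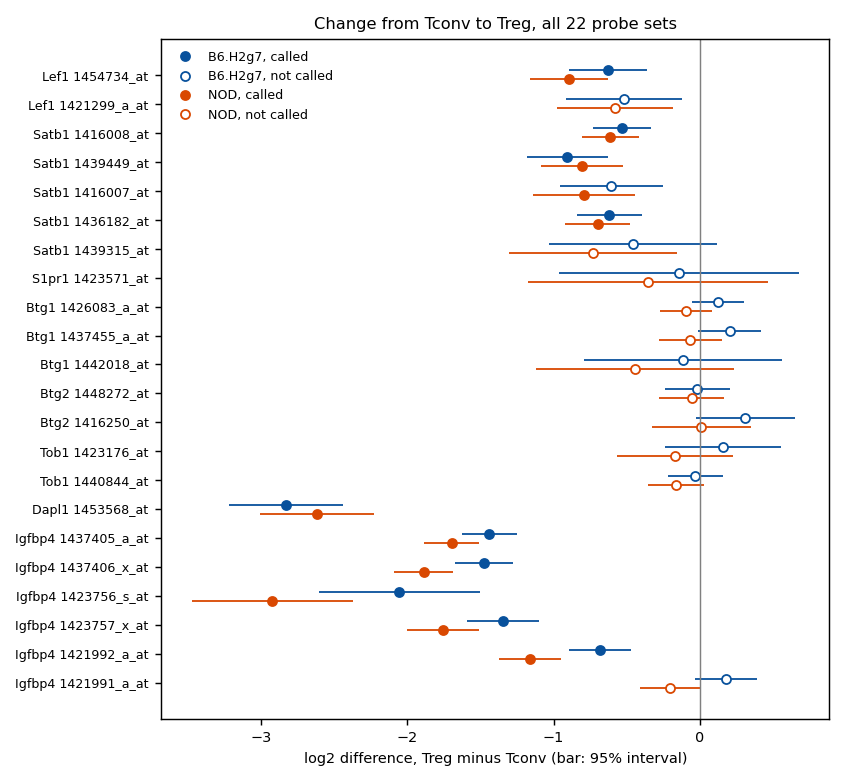
Log2 difference, Treg minus Tconv, for the 22 probe sets in B6.H2g7 (blue) and NOD (orange) with 95% intervals; filled points are called at an adjusted p under 0.05. Dapl1 and 4 of 6 probe sets of Igfbp4 lie farthest to the left in both strains, the Satb1 and Lef1 probe sets lie between -0.46 and -0.91, and the intervals of S1pr1 span zero widely.

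Insulin-like growth factor genes around Igfbp4 were looked at as a list of 14, of which 2 rose in Treg and 0 fell averaged over strains, beside 4.46% and 3.03% of all genes, and the counts were the same in each strain. Both were receptors. Igf1r, the signalling receptor of insulin-like growth factor 1, stood in Tconv at 7.82 ± 0.276 for B6.H2g7 and 7.92 ± 0.154 for NOD, and in Treg at 9.51 ± 0.21 and 9.44 ± 0.188 (1428967_at; SD, n = 3). No Treg array overlapped with a Tconv array, and Igf1r rose by 1.61 ± 0.11 averaged over strains (adjusted p = 9.59e-07). Igf2r, which clears insulin-like growth factor 2 and carries mannose 6-phosphate proteins, stood at 8.11 ± 0.229 and 8.27 ± 0.275 in B6.H2g7 and NOD Tconv and at 9.45 ± 0.316 and 9.61 ± 0.194 in Treg (SD, n = 3), a rise of 1.34 ± 0.13 (adjusted p = 2.25e-05). Of 5 probe sets of Igf1r, 4 were called higher, and both of Igf2r were. The binding proteins Igfbp1, Igfbp2, Igfbp3, Igfbp5, Igfbp6 and Igfbp7 were not called, at differences between -0.18 and 0.10, and neither were the growth factors Igf1 (-0.12) and Igf2 (0.03). The list's median was 0.02, against -0.011 for all genes.

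The change from Tconv to Treg was called different between strains for 0 of the 22 probe sets, where 0.0933% of all probe sets were called. At an unadjusted p under 0.05, 5 of the 22 passed, all of Igfbp4, against 4.54% of all probe sets. The change of Igfbp4 was the more negative in NOD by all 6 probe sets, of which 1421991_a_at was called lower in neither strain: the difference of the changes was -0.26 ± 0.123 for 1437405_a_at, -0.41 for 1437406_x_at and for 1423757_x_at, -0.87 for 1423756_s_at, -0.48 for 1421992_a_at and -0.38 for 1421991_a_at, with adjusted p between 0.812 and 0.962. With the array number as a block, 1423756_s_at was called (adjusted p = 0.0438, limma). That block also covers groups whose arrays did not all deviate together by number. For Lef1 the difference of the changes was -0.26, with a 95% interval from -0.64 to 0.11, for Satb1 -0.08 (from -0.36 to 0.20), for Dapl1 0.21 (from -0.34 to 0.76) and for S1pr1 -0.21 (from -1.37 to 0.95). Both strains thus had these 4 genes called, or not called, alike, while differences of the size of those intervals remain possible.

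In Tconv, 3 of the 22 probe sets were higher in NOD than in B6.H2g7 and 0 lower, beside 2.96% of the whole array called, 1.31% up and 1.65% down in NOD. All 3 were of Igfbp4: 1421992_a_at, at 7.37 ± 0.108 in B6.H2g7 and 7.93 ± 0.0861 in NOD (SD, n = 3; 0.56 ± 0.0972, adjusted p = 0.00557), 1437406_x_at (0.44 ± 0.0922, adjusted p = 0.0206) and 1437405_a_at (0.38 ± 0.0867, adjusted p = 0.0345). The 3 NOD arrays were above the 3 B6.H2g7 arrays for all 6 probe sets of Igfbp4. The other 3 were not called, at 0.78 for 1423756_s_at (adjusted p = 0.185), 0.43 for 1423757_x_at (0.0754) and 0.17 for 1421991_a_at (0.637). The count of 3 fell to 1, that of 1421992_a_at, without array 2 or 3 of B6.H2g7 Tconv, without any 1 of the 3 NOD Tconv arrays, or with only the Tconv arrays in the fit. It rose to 5 with the array number as a block or with the actin difference as a covariate. The Tconv arrays of the strains did not all deviate together by number, which limits what the block says here. The actin difference was 3.84, 3.67 and 4.43 in B6.H2g7 Tconv and 2.97, 3.79 and 4.25 in NOD Tconv.

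At an unadjusted p under 0.05, 7 of the 22 probe sets differed between strains in Tconv, against 10.6% of all probe sets, and the 2 that were not of Igfbp4 were of Btg1: 0.27 ± 0.0816 for 1426083_a_at (adjusted p = 0.14) and 0.25 for 1437455_a_at (adjusted p = 0.332), with no overlap between the arrays of the strains for either. With 16 added to the intensities before the log, 1426083_a_at was called (adjusted p = 0.0479). Arrays of the strains did not overlap for 9 of the 22 probe sets, all higher in NOD, against 16.9% of all probe sets. In Treg, 0 of the 22 were called between strains (limma), where 3.26% of all probe sets were called, 1 passed an unadjusted p under 0.05 (Igfbp4 1421991_a_at, -0.21, adjusted p = 0.468) against 10.5% of all probe sets, and 0 had groups without overlap, against 13.7%. The brightest probe set of Igfbp4 differed by 0.12 in Treg, with a 95% interval from -0.07 to 0.31.

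**Figure D4:**
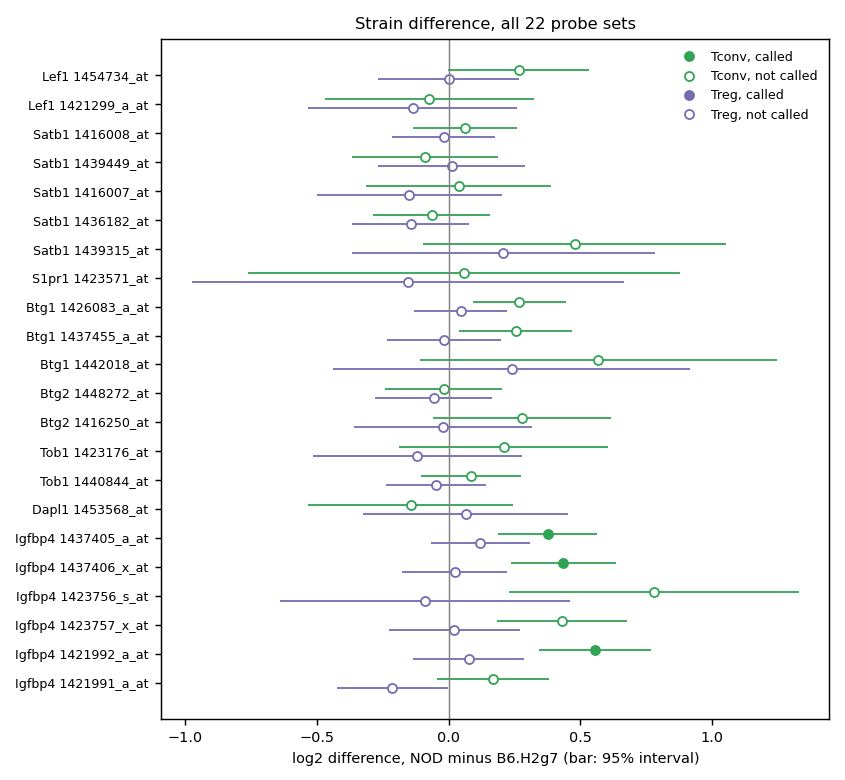
Log2 difference, NOD minus B6.H2g7, for the 22 probe sets in Tconv (green) and Treg (purple) with 95% intervals; filled points are called. In Tconv all 6 points of Igfbp4 lie to the right of zero, 3 of them filled, and in Treg no point is filled.

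Other genes of the naive and quiescent state did not move as a block. Of 23 measured, 5 fell and 4 rose in Treg averaged over strains, beside 3.03% and 4.46% of all genes, and the list's median was -0.08. The 5 that fell were the T cell receptor signalling gene Themis (-1.09, adjusted p = 2.46e-07), the homing receptor gene Ccr7 (-0.90, adjusted p = 4.04e-05), the actin crosslinker gene Actn1 (-0.87, adjusted p = 0.000159), the interleukin 7 receptor gene Il7r (-0.74, adjusted p = 6.24e-05) and Atp1b1, a sodium pump subunit (-0.66, adjusted p = 0.000119). All 5 were also called lower in each strain. Among the 4 that rose, Myb (1.72, adjusted p = 1.76e-05, limma) and Klf4 (1.13, adjusted p = 0.0241) are transcription factor genes. The others were Id3, an inhibitor of E proteins (0.83, adjusted p = 0.00225), and Ssbp2 (0.32, adjusted p = 0.0428). Of the 4, only Myb was called in both strains. Klf4 spread widely in NOD Treg, at 9.38, 7.70 and 8.36, and its array 1 was the highest in every group. Foxo1, a forkhead factor known to drive naive T cell genes, had a difference of 0.08 (adjusted p = 0.642), and Klf2 was not called. Il7r, Atp1b1 and Ssbp2 were picked out after their values were seen, since the rule for names took the 6 genes of largest change.

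**Figure D5:**
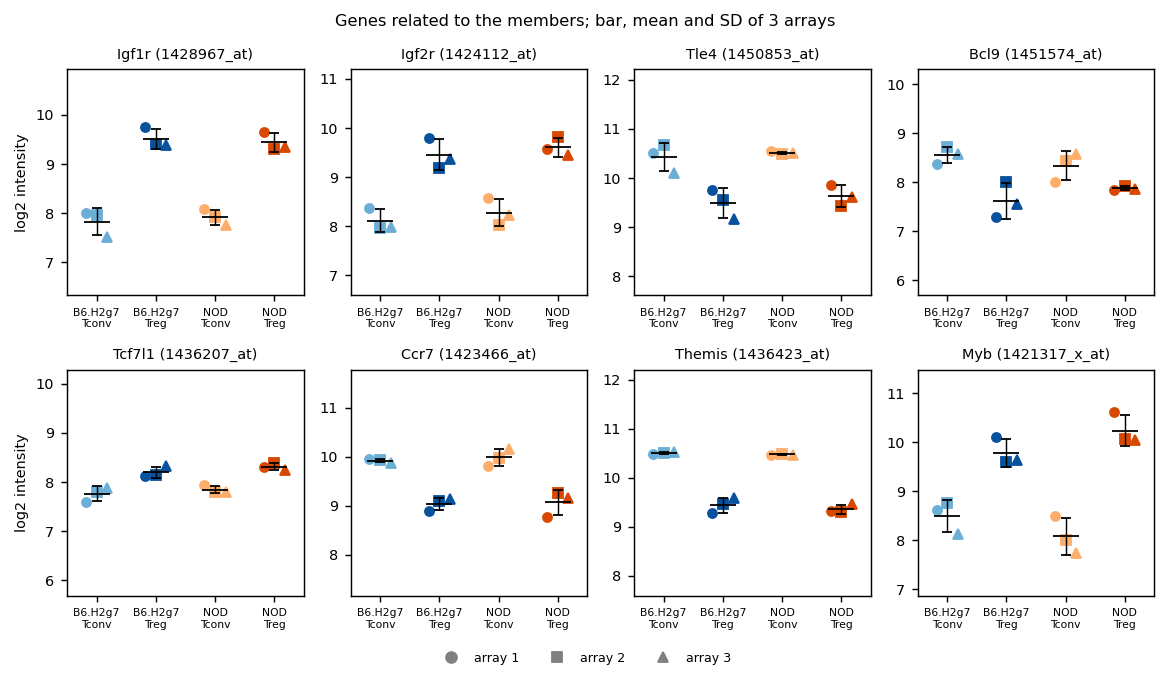
Log2 intensity of 8 genes related to the members (brightest probe set) in each array, by group, with marker shape for the array number and bars for the mean and SD of 3 arrays. Igf1r, Igf2r, Myb and Tcf7l1 were higher in Treg of both strains, and Tle4, Ccr7 and Themis lower, while Bcl9 was called lower in B6.H2g7 and averaged over strains.

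Genes of activated or memory T cells went mostly the other way: of 22, 12 rose and 2 fell in Treg averaged over strains, beside 4.46% and 3.03% of all genes, with a median of 0.47. The largest were Il2rb (3.38), Klrg1 (2.07), Itgae (1.80), Bhlhe40 (1.48) and Maf (1.37), which rose, and the chemokine gene Ccl5, which fell by 1.34. Of 15 cell cycle genes, 1 rose and 0 fell, near the same shares of all genes, so these counts say little. The 1 was Tk1 (0.36, adjusted p = 0.012, limma). Within strains, Tk1 was called in B6.H2g7 (0.47, adjusted p = 0.031) and not in NOD (0.25, adjusted p = 0.413). The division marker Mki67 had an averaged difference of -0.05 (adjusted p = 0.957). Several genes of the activation list are also known Treg genes.

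Markers of other cell types were summed over genes to compare the groups. On the linear scale, the summed intensity of 7 B cell genes was between 746 and 908 in B6.H2g7 Tconv, 766 and 920 in B6.H2g7 Treg, 806 and 940 in NOD Tconv and 846 and 920 in NOD Treg, and 1 of the 7, Cd79b, was called higher in Treg. The 9 myeloid genes summed to between 698 and 841 over all arrays, with 2 dim in every group, the 2 CD8 genes to between 201 and 288, the 5 NK cell genes to between 351 and 480 and the 3 erythroid genes to between 157 and 178. Of these, 1 NK cell gene, Gzmb, was called higher in Treg averaged over strains, and no myeloid, CD8 or erythroid gene was called. Gzmb was not called in NOD alone (0.41, adjusted p = 0.135, limma). Averaged over strains 7.5% of all genes were called, so counts in lists this short say little. The ranges of these B cell, myeloid, CD8, NK cell and erythroid sums overlapped between Treg and Tconv in each strain. The sum of 6 general T cell genes did not overlap: it was between 17410 and 18742 in B6.H2g7 Tconv against 15619 and 16333 in Treg, and between 18636 and 21529 in NOD Tconv against 15617 and 16882 in Treg. All 6 had averaged differences below 0, from -0.50 for Cd3g to -0.10 for Cd3e with a median of -0.27, and 1 of the 6, the coreceptor gene Cd4, was called lower (-0.40, adjusted p = 0.0262, limma). These sums moved the same way as the members that fell, and their part in those differences was not tested.

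For each member, the 2 other genes of most similar level over the 12 arrays were taken by Pearson's r of the brightest probe sets, among 11403 genes with a mean above the median. For the members that differ between Treg and Tconv these were genes with the same split: Enc1 (r = 0.989) and Rgmb (0.988) for Dapl1, Lrrc75b (0.991) and Clip1 (0.988) for Igfbp4, Themis (0.981) and Il1rl2 (0.975) for Satb1, and Ikzf1 (0.975) and Rab11fip4 (0.967) for Lef1. All 8 were called lower in Treg averaged over strains, from -0.42 for Rab11fip4 to -4.07 for Lrrc75b. Their choice by r over these same arrays largely fixed that outcome. For S1pr1, Lcorl (0.976) and Paip2 (0.972) came closest, for Tob1 Cand1 (0.971) and Tab3 (0.964), for Btg1 Gins1 (0.926) and Nupr1l (0.913), and for Btg2 Noc2l (0.897) and Bend3 (0.893). None of these last 8 was called between Treg and Tconv, which again follows largely from the choice by r. The 12 arrays fall into 4 groups and share the deviations by array number, so these values describe the arrays.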

How the data were processed

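RNA was extracted with Trizol, amplified in successive rounds and labelled with biotin, per the labels' protocols. The deposited table gives the authors' intensity of every probe set in linear units (5.78 to 27207), after RMA normalization per the submitters' processing notes, with a software version not given in the sources used here. RMA forces similar distributions on all arrays, so values are relative to each array's bulk. Double amplification favours 3′ ends. Here log2 was taken with no other change. Of 45101 probe sets, 64 controls were left out; 34945 name 1 gene in the platform annotation, which can be old, 932 several and 9160 none.

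limma 3.58.1 in R 4.3.3 was fitted with a mean per group on all 12 arrays, and checked on simulated data. A gene was represented by its brightest probe set. The text names all member probe sets, the up to 6 called genes of largest change in each list, the 2 genes most similar to each member, and a few others. The members and gene lists were chosen with earlier results of these data known. P-values measure the spread between pools.

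Arrays that share a number deviated together for NOD Tconv and NOD Treg (correlation of deviations 0.564, 0.315 and 0.401 for arrays 1 to 3). So did those of the Treg groups of the strains (0.671, 0.338 and 0.302), as every pair was over 0.1. This did not hold for every pair of the B6.H2g7 groups (0.521, -0.080 and 0.504) or the Tconv groups (0.436, -0.041 and 0.199). The main fit took no account of the array number. The block, used only as an alternative, gave each number 1 common shift in all 4 groups, those without such pairs included. Alternatives were other normalizations, an offset of 16, a filter on dim probe sets, only the arrays compared, the array number as a block, array weights, a trended robust variance, the actin difference as a covariate, the arrays numbered 1 left out, and each array left out in turn. Promoter windows came from RefSeq, GRCm38.p6.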

Additional observations from a re-analysis of the deposited data

How the results depend on the processing

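Counts of member probe sets called lower in Treg stayed between 8 and 12 in B6.H2g7, 10 and 13 in NOD and 11 and 13 averaged over the alternative settings (22 in each strain and 21 for the average), those leaving out 1 array included (9 to 11, 10 to 11 and 11 to 13). For the strain difference in Tconv, the count of 3 was 1 with only the arrays compared, 5 with the replicate block and 5 with the actin covariate, and between 1 and 4 with 1 array left out. For the difference of the changes, the count of 0 became 1 with the replicate block, and in Treg it stayed 0 between strains in every setting. The replicate block made 2 more member probe sets called in B6.H2g7 and in NOD and 1 more averaged, and ended no call. The cause of these shifts was not tested. Fits with arrays left out also held fewer arrays.

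Of 2848 values of single member probe sets under the alternatives, 34 lost their call and 22 gained one. Of 132 member results, 46 changed sign under some setting, and 0 of these were called in any setting. Counts over all probe sets moved by over 1.5 times: in B6.H2g7 from 1519 to between 976 and 3460, in NOD from 1443 to up to 2362, averaged from 2632 to up to 4796, for the difference of the changes from 42 to between 26 and 89, and between strains from 1333 to up to 2181 in Tconv and from 1468 to between 976 and 2361 in Treg. The median over all probe sets shifted by at most 0.018. The number of arrays limits the precision, and dim probe sets (Lef1 1421299_a_at, Tob1 1440844_at) say little about level.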
